A study of Homo sapiens with 24 samples.

Results

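The genes described here are 44 genes of STING signalling, DNA sensing and the interferon response, out of 60675 genes counted in the series. They were listed by symbol as genes of these pathways, and all 44 were found in the count tables. RNA sequencing had been carried out on 2 kidney cell lines, ACHN (labelled ccRCC) and HK2 (labelled Human Kidney), each in 4 groups of 3 replicates, 24 libraries in all. In each line, shNC cells carried a control hairpin, shKDM5C cells a hairpin against KDM5C, a histone demethylase of the KDM5 family, and shYY1 cells a hairpin against the transcription factor YY1. Dsh cells carried both knockdowns, so each group carried at least 1 hairpin. All cells were kept in DMEM with serum, and no treatment beyond the hairpins is named. The single knockdowns were puromycin-selected stable lines. Dsh cells were made by infecting YY1-depleted cells with a GFP-marked KDM5C hairpin virus and were then screened by puromycin and green fluorescence. Dsh therefore differs from the other groups in its vector, a further infection and the fluorescence screen as well. In the Dsh results these cannot be told apart from the loss of both genes. Which of the hairpins designed against each gene was used is not given, nor whether replicates were separate cultures, so p-values may measure technical spread only.

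In the cGAS-STING pathway, the enzyme cGAS binds DNA in the cytosol and makes a cyclic dinucleotide that activates STING, which recruits the kinase TBK1 and the transcription factor IRF3 to switch on type I interferon genes. Secreted interferon then acts through its receptor and a complex containing STAT2 and IRF9 that binds the interferon-stimulated response element (ISRE) of many antiviral genes, the interferon-stimulated genes. KDM5 demethylases are known repressors of STING1, and tumour cells often lose expression of STING or cGAS.

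The sequence that this complex binds was looked for in the promoters of the 44 genes. As examples, 11 windows are shown, each from a different gene that rose in both lines, fell in both or differed between them. Other such genes with a match (TLR3, IFIH1 and SAMD9 among them) are not shown, and several genes shown hold further matches. Promoters (250 bases before to 50 after the transcription start, RefSeq, GRCh38.p14) were given for 33 of the 44 genes. STING1, CGAS, IRF3, IRF7, IFIT2, OAS2, OASL, MX2, IFITM2, USP18 and TRIM22 had none, so the matches below say nothing of them. The ISRE core, GAAA and again GAAA with 2 bases of any kind between them, or on the other strand TTTC and TTTC spaced likewise, occurred in 21 of the 33 (63.6%) against 996 of all 27305 promoters (3.65%). Many of the genes were listed as interferon-stimulated, the class this complex acts on, so the higher share follows from how the list was made. The core of the YY1 site, AANATGGC on either strand, occurred in 0 of the 33 and in 1862 of all promoters (6.82%). At that share few matches would be found in 33 promoters, so the 0 says little. A match is a description of the letters, not a measured binding site. Each window has 30 bases of the gene's own strand with the match in capitals, and its last field is the position of the first base of the match from the transcription start.
IFIT3: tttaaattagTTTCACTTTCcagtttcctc (chr10:89327865-89327894, plus strand, -122)
DDX60: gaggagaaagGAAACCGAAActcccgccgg (chr4:168318786-168318815, minus strand, -53)
IFI44L: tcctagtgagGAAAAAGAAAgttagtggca (chr1:78620365-78620394, plus strand, -73)
PARP14: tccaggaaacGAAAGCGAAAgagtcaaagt (chr3:122680800-122680829, plus strand, -29)
OAS3: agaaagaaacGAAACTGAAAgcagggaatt (chr12:112938321-112938350, plus strand, -143)
EPSTI1: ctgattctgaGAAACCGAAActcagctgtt (chr13:42992272-42992301, minus strand, -50)
ISG20: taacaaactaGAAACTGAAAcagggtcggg (chr15:88638937-88638966, plus strand, -69)
IFI6: ggagagagggGAAAATGAAActgcagagtg (chr1:27672288-27672317, minus strand, -115)
IFITM3: aaactgttgaGAAACCGAAActactgggga (chr11:320876-320905, minus strand, -35)
IFITM1: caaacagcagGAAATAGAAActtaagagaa (chr11:313990-314019, plus strand, -40)
BST2: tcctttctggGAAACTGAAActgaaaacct (chr19:17405741-17405770, minus strand, -130)
The first 4 of these genes were higher in Dsh cells of both lines, OAS3 and EPSTI1 were lower in both, ISG20, IFI6 and IFITM3 changed in opposite directions, and IFITM1 and BST2 were expressed in HK2 cells and nearly silent in ACHN cells. Among the 18 genes with a match tested in ACHN Dsh cells, 8 were higher and 6 lower than in shNC, where 30.7% of all genes tested were called higher and 32.0% lower. Of the 9 tested genes whose promoter held no match, 5 were higher and 3 lower. In HK2 Dsh cells 11 of 21 genes with a match were higher and 5 lower, and 5 of 10 without a match were higher and 2 lower, where 25.5% of all genes were called higher and 24.3% lower.

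Libraries held between 15926561 and 24272298 counted read pairs. Levels are given as CPM (read counts scaled to library size, with TMM factors over all 24 libraries), changes as log2 fold changes with standard errors (SE), and a gene was called changed at a Benjamini-Hochberg adjusted p-value under 0.05 in edgeR's quasi-likelihood test over all genes tested. KDM5C fell in all 4 groups carrying its hairpin, from 70.8 CPM in ACHN shNC to 43.1 and 40.6 in shKDM5C and Dsh, and from 191 to 56.2 and 68.2 in HK2. The call in HK2 shKDM5C was lost in 5 of 6 omissions of 1 library, all but that of shKDM5C replicate 1 (adjusted p up to 0.151). KDM5C was also higher in shYY1 than in shNC. Over other settings and omitted libraries its log2 fold change there was 0.32 to 0.36 in ACHN, called each time. In HK2 it was 0.30 to 0.38, with adjusted p up to 0.309. YY1 fell from 139 to 76.8 (shYY1) and 97.0 CPM (Dsh) in ACHN and from 208 to 63.9 and 74.2 in HK2. Its mean was thus higher in Dsh than in shYY1 of each line. What part this has in the interactions and in Dsh against shYY1 was not tested. HK2 shKDM5C replicate 1 stood apart from replicates 2 and 3. The SD of its log2 differences to them was 0.699 and 0.689, against 0.144 to 0.217 for every other pair of replicates. Among the 37 listed genes tested in HK2 shKDM5C, 16 were more than 1.5-fold lower in that replicate than in both others, such as IRF3, BST2 and IFITM3, and 4 more than 1.5-fold higher (DDX60, HERC6, IFI44L and SAMD9). The same count was not taken over all genes, so these counts are not read as particular to the listed genes. Because replicate 1 stood apart, many results that use HK2 shKDM5C are also given without that replicate. Where no such value is given, the result includes it. Of the kidney epithelial markers PAX8, PAX2, KRT8, KRT18 and CDH2, each had counts in every group, with a summed level of 1494 to 2942 CPM per library, lower in Dsh than in the other groups of each line (1758 to 1894 CPM in ACHN, 1494 to 1595 in HK2), and what part this has in the Dsh results was not tested. In these bulk samples fewer cells that express a gene and less RNA of it per cell cannot be told apart.

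**Figure D1:**
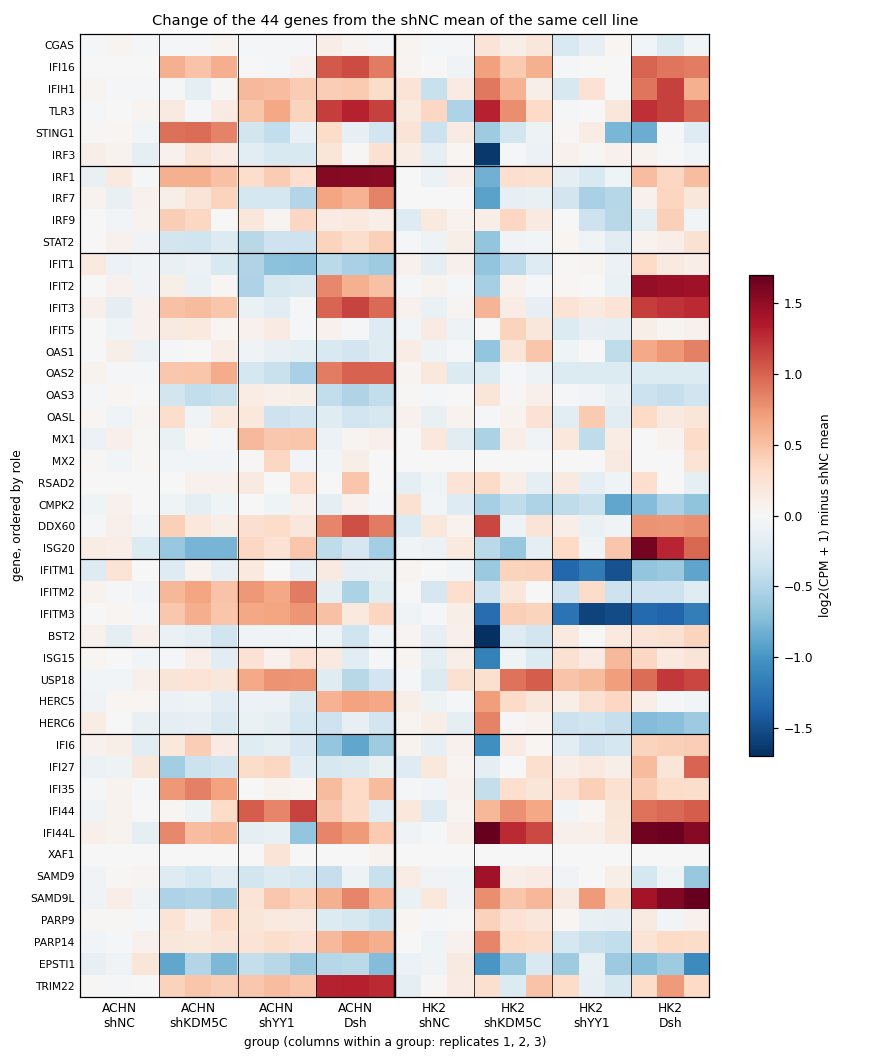
Change of each of the 44 genes in each of the 24 libraries, as log2(CPM + 1) minus the shNC mean of the same cell line (red higher, blue lower), with genes grouped by role and replicates 1 to 3 side by side. STING1 is reddest in ACHN shKDM5C, the IRF1, IFIT2, IFIT3, TLR3 and IFI16 rows are red in Dsh of both lines, and the first column of HK2 shKDM5C differs from the other 2.

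Before any knockdown effect, the control cells of the 2 lines held different parts of the pathway. HK2 cells expressed cGAS, and ACHN shNC cells gave 1 count of it, whereas STING1 was low in both. In shNC cells 34 of the 40 genes tested differed between the lines, 23 higher and 11 lower in ACHN, where 76.6% of all genes tested differed, 38.6% higher and 38.0% lower. CGAS (chromosome 6, 73413515 to 73452276, GRCh38) had 58.0, 55.2 and 54.5 CPM in the 3 HK2 shNC replicates and 0, 0.0539 and 0 in the ACHN replicates. This was 1 count in ACHN against 3121 in HK2, a ratio of 3135 with a 95% counting interval of 562 to 123848, and each of the 12 ACHN libraries was at or under 0.103 CPM. Such intervals cover counting error only.

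STING1 (chromosome 5, 139475534 to 139482935), the adaptor that cGAS activates, had 0.786, 0.809 and 0.704 CPM in ACHN shNC and 1.59, 0.717 and 1.44 in HK2 shNC. These replicates overlapped, and the difference did not pass the test (log2 difference -0.71, SE 0.38, adjusted p = 0.0878). Without HK2 shNC replicate 2 it was -0.99 and passed (adjusted p = 0.0197). Per kilobase of exonic length, CGAS in HK2 stood at 13.5 CPM and STING1 at 0.324, and IFI16, a DNA-binding protein of the nucleus and cytosol, at 12.6 in HK2 and 13.0 in ACHN. The difference of IFI16 between the lines did not pass the test (log2 difference 0.03, adjusted p = 0.556). The RNA sensors were higher in ACHN. IFIH1, which encodes the double-stranded RNA sensor MDA5, had 18.7 CPM in ACHN and 2.64 in HK2 (log2 difference 2.81, adjusted p = 1.32e-15), and TLR3, the endosomal RNA receptor, 20.01 and 3.07 CPM (log2 difference 2.70, adjusted p = 1.58e-14).

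Several effector genes were present in 1 line and almost absent from the other. BST2, which encodes tetherin, a membrane protein that holds budding viruses at the cell surface, had 153, 135 and 157 CPM in HK2 shNC and 0.629, 0.378 and 0.650 in ACHN shNC. This is a ratio of 269 (95% counting interval 189 to 396), and per kilobase BST2 was the highest of the 44 genes in HK2, at 133 CPM. The IFITM genes on chromosome 11 encode small membrane proteins that hinder the entry of enveloped viruses. IFITM1 (313506 to 315272) had 12.8, 12.3 and 11.8 CPM in HK2 and 0.0524, 0.431 and 0.217 in ACHN. Its neighbour IFITM2 (307631 to 315272) showed the reverse, with 37.0, 35.2 and 34.4 CPM in ACHN and 0.273, 0.0552 and 0.566 in HK2. IFITM3 was high in both lines, at 162 ± 3.75 CPM in ACHN and 39.9 ± 2.35 in HK2 (mean ± SD, n = 3), and per kilobase was the highest of the 44 in ACHN, at 120.4 CPM. IFITM1 and IFITM2 share 351 exonic bases on the same strand, which are 32.5% and 22.7% of their lengths, and the 3 paralogs are similar in sequence, so counts of one may hold or lack reads of another.

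ACHN cells also expressed genes that HK2 cells nearly lacked. TRIM22, a ubiquitin ligase with antiviral activity, had 47.8 ± 0.708 CPM in ACHN and 0.427 ± 0.147 in HK2. OAS2, 1 of the synthetases that activate RNase L on double-stranded RNA, had 7.91 ± 0.324 CPM in ACHN and 0.183 ± 0.168 in HK2, where 10 counts were found in the 3 shNC libraries together. The paralog pair SAMD9 and SAMD9L, which restrict poxviruses and translation, was likewise higher in ACHN, SAMD9L at 36.4 against 0.862 CPM and SAMD9 at 57.7 against 12.8. In the other direction IFI44L, a gene of poorly known function that follows interferon closely, had 23.6 CPM in HK2 and 1.92 in ACHN. XAF1, RSAD2 and MX2 were tested in none of the 6 knockdown comparisons, and their highest group mean was 0.200 CPM (RSAD2).

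**Figure D2:**
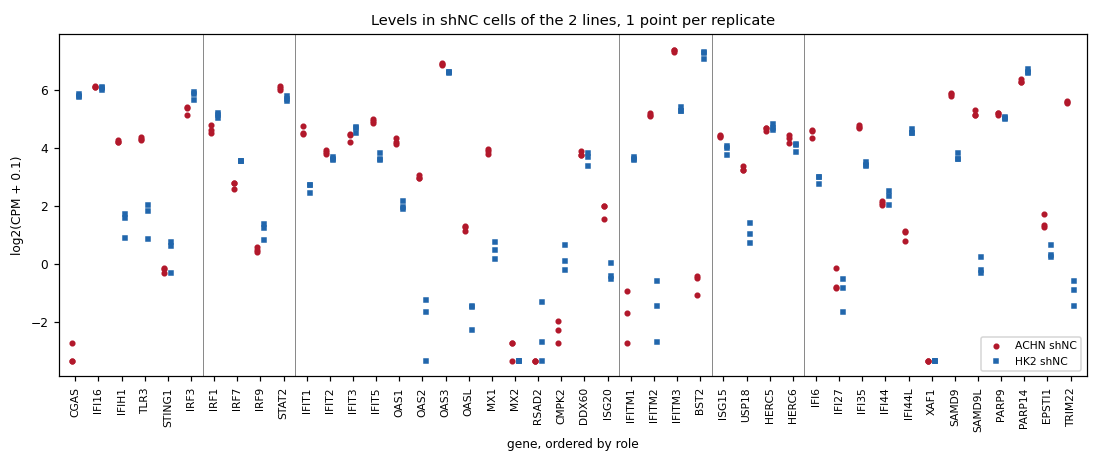
Level of each of the 44 genes in the 3 ACHN shNC replicates (red circles) and the 3 HK2 shNC replicates (blue squares), as log2(CPM + 0.1), ordered by role. CGAS, BST2, IFITM1 and IFI44L sit far higher in HK2, and IFITM2, TRIM22, OAS2 and SAMD9L far higher in ACHN.

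STING1 rose in 1 of the 6 knockdown comparisons, ACHN shKDM5C, and was not called higher in cells with both knockdowns. In ACHN shKDM5C cells its 3 replicates had 2.38, 2.42 and 2.18 CPM, all above the shNC replicates, a log2 fold change of 1.58 (SE 0.27, adjusted p = 2.08e-05). It was the largest change among the 36 listed genes tested in that comparison. ACHN shYY1 cells had 0.427, 0.323 and 0.616 CPM, below the shNC replicates without passing the test (log2 fold change -0.77, adjusted p = 0.112). ACHN Dsh cells had 1.18, 0.609 and 0.407 CPM, which overlapped shNC (log2 fold change -0.08, SE 0.42, adjusted p = 0.871). Dsh was lower than shKDM5C, with a log2 fold change of -1.66 (SE 0.35, adjusted p = 0.000493). The interaction term, which asks whether the double knockdown differs from the sum of both single effects on the log2 scale, was -0.92 and did not pass the test (SE 0.55, adjusted p = 0.163), but without Dsh replicate 1 it was -1.45 with an adjusted p of 0.0285.

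In HK2 cells no comparison of STING1 passed the test. The shKDM5C replicates had 0.456, 0.781 and 1.09 CPM, a log2 fold change of -0.65 (SE 0.46, adjusted p = 0.5), and without replicate 1 of -0.43 (adjusted p = 0.587). The shYY1 replicates had 1.25, 1.41 and 0.289 and the Dsh replicates 0.236, 1.17 and 0.907 CPM, both overlapping shNC. The 12 HK2 libraries held 4 to 29 counts of STING1 each. The shKDM5C effect on STING1 differed between the lines by a log2 value of 2.23 (SE 0.48, adjusted p = 0.0116) and by 2.01 without HK2 shKDM5C replicate 1 (adjusted p = 0.00199). With the replicate number as a block its adjusted p was 0.0538. CGAS was called in no HK2 comparison with shNC. Its means were 55.9, 63.1, 51.4 and 51.7 CPM in shNC, shKDM5C, shYY1 and Dsh, with adjusted p = 0.424, 0.22 and 0.166. Without shKDM5C replicate 1 its log2 fold change in shKDM5C was 0.14 (adjusted p = 0.139). Between HK2 Dsh and shKDM5C it had a log2 fold change of -0.33 (adjusted p = 0.143), and without shKDM5C replicate 1 of -0.26 (adjusted p = 0.00616). In ACHN it failed the filter on low counts in all 3 comparisons with shNC.

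**Figure D3:**
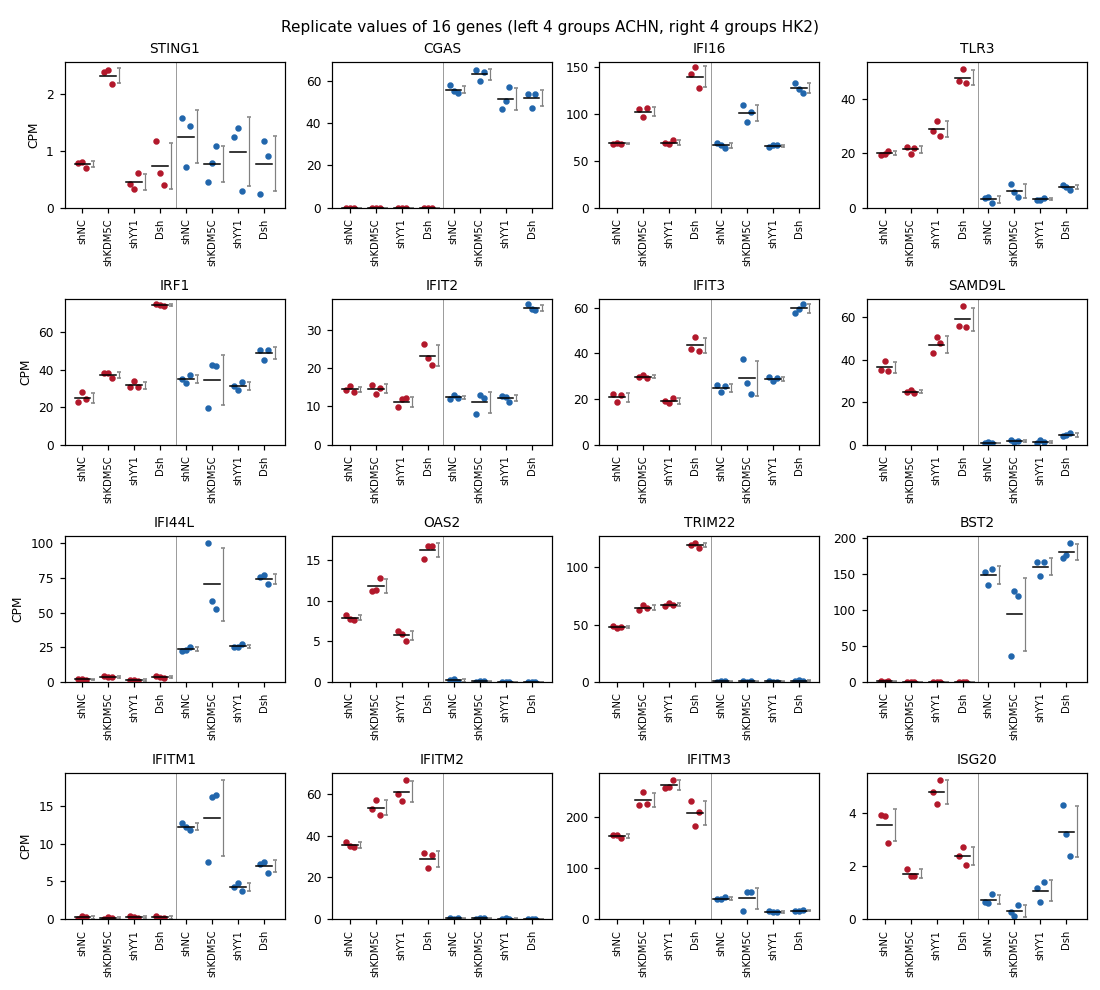
CPM of 16 genes in each replicate (points), with the group mean (black line) and SD (grey bar), the 4 ACHN groups in red and the 4 HK2 groups in blue. STING1 separates ACHN shKDM5C at 2.18 to 2.42 CPM from every other ACHN group, and IFIT2 and IFIT3 separate Dsh from the rest in both lines.

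Among the other sensors and adaptors, IFI16, TLR3 and IFIH1 rose in Dsh cells of both lines. IFI16 had 68.5, 69.2 and 68.2 CPM in ACHN shNC, 105, 96.7 and 106 in shKDM5C, 68.6, 67.5 and 72.0 in shYY1 and 142, 149 and 127 in Dsh. Thus shYY1 replicates overlapped shNC, shKDM5C replicates lay above them and Dsh replicates above both (log2 fold changes 0.57 for shKDM5C, -0.01 for shYY1 and 1.03 for Dsh, adjusted p = 4.82e-11, 0.929 and 1.52e-11). HK2 cells showed nearly the same levels, with 69.2, 66.7 and 64.1 CPM in shNC, 109, 91.3 and 102 in shKDM5C and 133, 126 and 123 in Dsh. In HK2 the Dsh change passed the test (0.93, adjusted p = 4.09e-15), and the shKDM5C change of 0.64 did not (adjusted p = 0.086). Without replicate 1 the latter was 0.53 and passed (adjusted p = 6.00e-07), and DESeq2 called it with all replicates.

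TLR3 rose in ACHN Dsh from 19.5, 19.8 and 20.7 CPM in shNC to 46.4, 51.0 and 45.8, a log2 fold change of 1.26 (SE 0.072, adjusted p = 2.39e-11), and in HK2 Dsh from 3.44, 4.03 and 1.75 to 8.32, 7.81 and 6.69 (1.31, SE 0.22, adjusted p = 1.11e-05). The groups did not overlap in either line. TLR3 was also called higher in ACHN shYY1. IFIH1 rose in ACHN shYY1 (0.51, adjusted p = 1.17e-07) and in Dsh of both lines (0.41 in ACHN, 1.10 in HK2, adjusted p = 0.000184 and 0.000233). IRF3, the factor that STING activates, fell in ACHN shYY1 only (-0.26, adjusted p = 0.000762), and 19.3% of its exonic bases overlap BCL2L12 on the opposite strand, which unstranded counting cannot separate.

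Of the 4 transcription factors, IRF1 changed most. It encodes an interferon regulatory factor that drives antiviral genes and is itself induced by interferon gamma. ACHN replicates had 22.6, 27.9 and 24.3 CPM in shNC, 38.2, 38.3 and 35.4 in shKDM5C, 30.7, 33.7 and 30.6 in shYY1 and 74.8, 74.4 and 74.0 in Dsh. Each knockdown group lay above shNC without overlap, and Dsh above both single knockdowns, with log2 fold changes of 0.57, 0.33 and 1.59 (adjusted p = 1.63e-07, 0.000174 and 6.62e-13). Its interaction term was 0.67 (SE 0.095, adjusted p = 1.53e-06). In HK2 it rose in Dsh, from 35.0 to 48.8 CPM (0.48, adjusted p = 3.18e-06). In HK2 shKDM5C it had 19.4, 42.6 and 41.9 CPM and was called without replicate 1 (0.26, adjusted p = 0.0183) and not with it. It was not called in HK2 shYY1, and the Dsh effect differed between the lines by 1.13 (adjusted p = 4.80e-10).

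IRF7, the amplifier of the interferon response, and STAT2, a subunit of the factor that binds the ISRE, followed a common order in ACHN cells, lower in shYY1 and higher in Dsh. IRF7 had 6.58 CPM in shNC, 4.89 in shYY1 and 11.4 in Dsh (log2 fold changes -0.45 and 0.80, adjusted p = 0.00808 and 1.50e-05). STAT2 fell in both single knockdowns (-0.31 and -0.42) and rose in Dsh (0.37), from 66.1, 70.2 and 63.7 CPM in shNC to 86.9, 81.9 and 88.8 in Dsh, adjusted p = 8.67e-06, 1.34e-08 and 8.81e-06. The interaction of STAT2, 1.08 (SE 0.076, adjusted p = 8.11e-12), was the largest positive one among the 44 genes in ACHN. In HK2 IRF7 fell in shYY1 (-0.50, adjusted p = 0.00601) and STAT2 was called in none of the 3. IRF9, whose exonic bases overlap another annotated gene by 48.4%, was at most 3.17 CPM in any library and was called in none of the 6.

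The IFIT genes lie in a cluster on chromosome 10 and encode proteins that bind foreign RNA, and in Dsh cells its members moved apart. IFIT2 (89301955 to 89309276) had 14.4, 15.2 and 13.9 CPM in ACHN shNC, 15.6, 13.3 and 14.8 in shKDM5C, 9.77, 11.8 and 12.1 in shYY1 and 26.1, 22.6 and 20.9 in Dsh. HK2 replicates had 11.97, 12.9 and 12.1 CPM in shNC, 8.02, 13.1 and 12.1 in shKDM5C, 12.7, 12.4 and 11.3 in shYY1 and 36.5, 35.3 and 35.1 in Dsh. In no single knockdown was IFIT2 called higher than in shNC, and in ACHN shYY1 it was called lower. Dsh replicates lay above all others in both lines. The log2 fold change in Dsh was 0.68 in ACHN (SE 0.096, adjusted p = 5.42e-06) and 1.53 in HK2 (SE 0.094, adjusted p = 1.09e-14). The interaction passed the test in both lines, at 1.05 in ACHN and 1.68 in HK2 (adjusted p = 7.92e-07 and 0.000323). Without HK2 shKDM5C replicate 1 the HK2 interaction was 1.55 (adjusted p = 4.91e-09).

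IFIT3 (89327894 to 89340971), a partner of the other IFIT proteins, was likewise higher in Dsh, rising from 22.1, 18.6 and 21.8 CPM in ACHN shNC to 42.0, 47.3 and 41.2 (1.07, adjusted p = 1.59e-09) and from 26.4, 22.9 and 25.7 in HK2 shNC to 57.8, 59.5 and 61.6 (1.25, adjusted p = 5.29e-15). In ACHN it was also higher in shKDM5C (0.50, adjusted p = 1.47e-06). IFIT1, the family member that recognizes RNA caps lacking methyl groups, went the other way in ACHN. It had 27.0, 22.4 and 22.95 CPM in shNC, 16.7, 14.5 and 14.3 in shYY1 and 17.2, 16.1 and 15.4 in Dsh (log2 fold changes -0.69 and -0.57, adjusted p = 8.86e-09 and 2.54e-05). IFIT1 was also called lower in ACHN shKDM5C. It was called in no HK2 comparison with shNC, and IFIT5 in none of the 6.

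The OAS synthetases also differed among themselves. OAS2 had 8.28, 7.77 and 7.69 CPM in ACHN shNC, 11.3, 11.4 and 12.8 in shKDM5C, 6.24, 5.87 and 5.09 in shYY1 and 15.2, 16.8 and 16.8 in Dsh, 4 groups without overlap (log2 fold changes 0.56, -0.48 and 1.05, adjusted p = 6.85e-05, 0.00178 and 5.43e-08). HK2 shYY1 and Dsh libraries held 0 counts of it, so that no fold is given there. OAS3, the highest of the family, fell in Dsh of both lines, from 115, 121 and 117 to 87.9, 82.0 and 87.9 CPM in ACHN (-0.45, adjusted p = 2.43e-07) and from 99.0, 96.1 and 97.2 to 75.3, 74.3 and 76.9 in HK2 (-0.37, adjusted p = 8.37e-07). In the ACHN single knockdowns OAS3 was called lower in shKDM5C and higher in shYY1. OAS1 fell in ACHN Dsh (-0.27, adjusted p = 0.0137) and rose in HK2 Dsh, from 3.94 to 7.29 CPM (0.89, adjusted p = 0.000141). OASL was at most 3.03 CPM in ACHN and was called in none of the 3 comparisons with shNC there.

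MX1, a GTPase that blocks influenza and other viruses, rose in ACHN shYY1 only, from 13.6, 15.7 and 14.9 to 22.1, 20.6 and 20.8 CPM (0.50, adjusted p = 1.86e-06). DDX60, a helicase that promotes RNA sensing, rose in Dsh of both lines (0.99 in ACHN, 0.80 in HK2, adjusted p = 2.13e-08 and 7.08e-07). It was also called higher in both ACHN single knockdowns. CMPK2, a nucleotide kinase of mitochondria, fell in HK2 Dsh from 1.08 to 0.310 CPM (-1.78, adjusted p = 0.00592), a call that was lost without shNC replicate 1 (adjusted p = 0.0557). ISG20, an exonuclease that degrades viral RNA, moved in opposite directions in Dsh cells of the 2 lines. ACHN shNC had 3.93, 3.88 and 2.87 CPM, shKDM5C 1.90, 1.63 and 1.63, shYY1 4.80, 4.36 and 5.26 and Dsh 2.37, 2.71 and 2.04, whereas HK2 shNC had 0.656, 0.607 and 0.926 and Dsh 4.31, 3.23 and 2.38. In ACHN it fell in shKDM5C (-1.06, adjusted p = 0.000131) and rose in shYY1 (0.41, adjusted p = 0.0416). Its Dsh change was -0.59 in ACHN (adjusted p = 0.021, lost when shNC replicate 1 or 2 or Dsh replicate 3 was left out, with adjusted p up to 0.0860) and 2.16 in HK2 (adjusted p = 4.62e-06).

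Of the membrane effectors, IFITM3 fell in HK2 shYY1 and Dsh and rose in all 3 ACHN knockdowns. HK2 replicates had 38.2, 38.84 and 42.6 CPM in shNC, 16.04, 12.7 and 13.2 in shYY1 and 15.3, 14.97 and 17.1 in Dsh, with log2 fold changes of -1.52 (SE 0.099) and -1.34 (SE 0.09), adjusted p = 1.27e-10 and 9.95e-14. ACHN replicates had 163, 165 and 158 CPM in shNC, 224, 249 and 225 in shKDM5C, 256, 259 and 273 in shYY1 and 230.4, 183 and 209 in Dsh. No knockdown replicate of ACHN overlapped its shNC (0.50, 0.67 and 0.36, adjusted p = 2.44e-11, 1.72e-18 and 6.02e-05). An antisense gene overlaps 21.3% of the exonic bases of IFITM3, and unstranded counting cannot separate their reads.

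IFITM1, read in HK2, fell in the same HK2 groups as IFITM3, with 12.8, 12.3 and 11.8 CPM in shNC, 4.28, 4.83 and 3.75 in shYY1 and 7.37, 7.63 and 6.12 in Dsh (-1.52 and -0.81, adjusted p = 7.95e-08 and 1.51e-05). Its Dsh level lay above shYY1 (0.72, adjusted p = 0.00258). The HK2 shKDM5C replicates had 7.63, 16.2 and 16.5 CPM of IFITM1 and 15.7, 52.9 and 52.1 of IFITM3, so that replicates 2 and 3 lay above shNC and replicate 1 below it. IFITM2, read in ACHN, rose in both single knockdowns and fell in Dsh, from 37.0, 35.2 and 34.4 CPM to 53.0, 57.2 and 49.96 (shKDM5C), 59.8, 56.7 and 66.6 (shYY1) and 31.4, 24.2 and 30.6 (Dsh). Its log2 fold changes were 0.57, 0.76 and -0.29 (adjusted p = 4.03e-09, 2.50e-13 and 0.00597), and its interaction of -1.65 (SE 0.11, adjusted p = 2.42e-12) was the most negative of the 44 genes. BST2 rose slightly in HK2 Dsh, from 149 to 181 CPM (0.28, adjusted p = 6.46e-05), and was at most 0.650 CPM in any ACHN library.

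The ISG15 system attaches the ubiquitin-like protein ISG15 to other proteins and removes it again. ISG15 itself moved little. It rose in ACHN shYY1 (0.18, adjusted p = 0.0317) and in HK2 shYY1 (0.34, adjusted p = 0.0378), the latter lost in 3 of 6 omissions of 1 library (shNC replicates 1 and 2 and shYY1 replicate 3, adjusted p up to 0.273). USP18, the protease that removes ISG15 and dampens the interferon receptor, had 9.39, 9.38 and 10.3 CPM in ACHN shNC, 15.7, 17.1 and 16.9 in shYY1 and 8.23, 6.70 and 7.54 in Dsh (0.76 and -0.36, adjusted p = 1.61e-08 and 0.0143). In HK2 it rose from 1.97, 1.54 and 2.57 CPM to 4.78, 5.87 and 5.61 in Dsh (1.41, adjusted p = 8.78e-06). Its rise in HK2 shYY1 (0.78, adjusted p = 0.0295) was lost in the same 3 omissions, with adjusted p up to 0.124. The ligase genes HERC5 and HERC6 moved apart in ACHN Dsh, HERC5 up (0.67, adjusted p = 9.46e-08) and HERC6 down (-0.28, adjusted p = 0.0162), and HERC6 was also lower in HK2 Dsh (-0.74, adjusted p = 7.88e-06). Both were called lower in ACHN shYY1, and HERC6 also in ACHN shKDM5C and HK2 shYY1.

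Among the remaining interferon-stimulated genes, SAMD9L and IFI44L rose in Dsh of both lines. SAMD9L had 0.711, 1.10 and 0.772 CPM in HK2 shNC and 3.95, 4.52 and 5.44 in Dsh, a log2 fold change of 2.42 (SE 0.29, adjusted p = 3.53e-08), the largest rise of the 44 genes in HK2. In ACHN, where it stood far higher, it fell in shKDM5C to 25.0, 25.5 and 24.3 CPM (-0.56, adjusted p = 6.63e-08) and rose in shYY1 and Dsh (0.35 and 0.70, adjusted p = 1.46e-05 and 1.26e-07). Its neighbour and paralog SAMD9 fell in all 3 ACHN knockdowns (-0.25, -0.30 and -0.28) and in HK2 Dsh (-0.36, adjusted p = 0.0396). IFI44L had 22.6, 22.9 and 25.2 CPM in HK2 shNC, 100.2, 58.4 and 52.4 in shKDM5C and 75.3, 76.9 and 70.5 in Dsh, both knockdown groups above shNC without overlap. Its Dsh change was 1.65 (SE 0.071, adjusted p = 2.32e-18). The shKDM5C change was 1.63 with all replicates (adjusted p = 0.05041) and 1.22 without replicate 1 (adjusted p = 5.10e-11).

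TRIM22 rose in each ACHN knockdown, from 48.6, 47.1 and 47.9 CPM to 63.0, 66.9 and 64.5 (shKDM5C), 66.4, 69.1 and 66.7 (shYY1) and 119.6, 121 and 117 (Dsh), the last a log2 fold change of 1.32 (SE 0.049, adjusted p = 5.05e-14). IFI35, a regulator of inflammatory signalling, rose in ACHN shKDM5C (0.77, adjusted p = 6.15e-11) and in Dsh of both lines. IFI44 rose in ACHN shYY1, from 3.98, 4.42 and 4.17 to 9.55, 8.24 and 10.47 CPM (1.15, adjusted p = 6.86e-09), and in HK2 Dsh (1.10, adjusted p = 1.01e-06). IFI6, a mitochondrial protein that opposes cell death, fell in ACHN Dsh from 24.2, 24.5 and 20.1 to 14.1, 11.96 and 14.7 CPM (-0.74, adjusted p = 3.97e-06) and rose in HK2 Dsh from 7.87, 6.73 and 7.93 to 10.03, 10.3 and 10.3 (0.44, adjusted p = 0.0111). In the ACHN single knockdowns IFI6 was called higher in shKDM5C and lower in shYY1. EPSTI1, first described in breast epithelium next to stroma, fell in all 3 ACHN knockdowns (-1.13, -0.77 and -0.85) and in HK2 Dsh (-2.08, adjusted p = 0.00204), with at most 3.19 CPM in any library. Its ACHN shYY1 call was lost without shNC replicate 3 (adjusted p = 0.0583). PARP14, an ADP-ribosyltransferase, rose in all 3 ACHN knockdowns (up to 0.63 in Dsh) and in HK2 Dsh (0.30), and fell in HK2 shYY1 (-0.37, adjusted p = 4.62e-05), whereas its partner PARP9 rose in both ACHN single knockdowns (0.21 and 0.16), fell in ACHN Dsh (-0.30, adjusted p = 0.000914) and was called in no HK2 comparison with shNC. IFI27 was at most 1.81 CPM in any library and was called in HK2 Dsh only (1.44, adjusted p = 0.0217).

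Counted over all 44 genes, the calls in the single knockdowns went both ways. In ACHN shKDM5C 14 of 36 tested genes were higher and 8 lower, where 56.6% of all genes tested were called (28.9% higher, 27.7% lower), and the median log2 fold change was 0.15 against -0.01 over all genes. In ACHN shYY1 16 of 37 were higher and 11 lower, where 48.7% of all genes were called, 24.2% higher and 24.5% lower (medians 0.05 and -0.01). In ACHN Dsh 17 of 36 (47.2%) were higher and 11 (30.6%) lower, where 62.6% of all genes were called, 30.7% higher and 32.0% lower. Its median was 0.25 against -0.01. Dsh differed from shKDM5C in 23 of 36 genes, 14 higher and 9 lower, where 62.5% of all genes were called (31.6% higher, 30.9% lower). It differed from shYY1 in 25 of 36, 16 higher and 9 lower, where 64.6% of all genes were called (32.0% higher, 32.7% lower). The interaction passed the test in 25 of 37 genes, 16 positive and 9 negative, where 55.6% of all genes did (26.8% positive, 28.8% negative).

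In HK2 shKDM5C 0 of 37 tested genes were called by edgeR, where 1.32% of all genes were (0.668% higher, 0.656% lower). At an unadjusted p-value under 0.05 there were 12, and DESeq2 called 3 (IFI16, IFI44 and IFI44L). The share of all genes under either of these rules is not given, so the 1.32% does not apply to these counts. Without replicate 1, 9 of 38 were called, where 22.3% of all genes were, namely IFI16, IFI44, IFI44L, IFITM1, IFITM3, IRF1, PARP14 and USP18 higher and BST2 lower. In HK2 shYY1 8 of 36 were called, where 29.1% of all genes were (14.3% higher, 14.7% lower), 3 higher (USP18, ISG15 and IFI35) and 5 lower (IFITM1, IFITM3, IRF7, HERC6 and PARP14). With scaling to total counts this became 1 higher and 5 lower. The count was 4 without shNC replicate 2 and 5 without shYY1 replicate 3. The call of IFI35 was lost when any 1 of the 6 libraries was left out (adjusted p up to 0.185), and that of HERC6 without shNC replicate 2 (adjusted p = 0.0634). In HK2 Dsh 18 of 38 (47.4%) were higher and 7 (18.4%) lower, where 49.8% of all genes were called, 25.5% higher and 24.3% lower, with a median log2 fold change of 0.27 against 0.00.

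HK2 Dsh differed from shYY1 in 22 of 36 genes, 19 of them higher, where 47.7% of all genes were called (24.8% higher, 22.9% lower). Against shKDM5C 6 of 36 were called, where 11.9% of all genes were (6.26% higher, 5.59% lower), namely ISG20, IFIT2, SAMD9L and IFIT3 higher and HERC6 and OAS3 lower, and without shKDM5C replicate 1 this was 23 of 36 (43.3% of all genes). Omitting any other of those 6 libraries left 1 to 3 calls. The HK2 interaction passed the test in 4 of 38 genes (9.61% of all genes, 5.21% positive and 4.40% negative), ISG20, IFIT2 and IRF7 positive and OAS3 negative, and in 15 of 39 without shKDM5C replicate 1 (28.7%). Omission of other libraries gave 1 or 2 calls for shNC replicates 1 to 3, shYY1 replicates 2 and 3 and Dsh replicates 1 to 3. Scaling with DESeq2 size factors gave 3 positive and 0 negative interactions, and scaling to total counts gave 5 and 0.

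The Dsh comparisons of the 2 lines share no samples, and 33 of the 44 genes were tested in both. Called higher in both were 11 genes, namely DDX60, IFI16, IFI35, IFI44L, IFIH1, IFIT2, IFIT3, IRF1, PARP14, SAMD9L and TLR3, which is 33.3% of the 33, where 13.0% of all 14784 genes tested in both were called higher in both. Called lower in both were 4 genes (12.1%, and 12.7% of all genes), EPSTI1, HERC6, OAS3 and SAMD9. The directions were opposite for 5 (15.2%, and 11.2% of all genes), IFITM3 being higher in ACHN and lower in HK2, and IFI6, ISG20, OAS1 and USP18 lower in ACHN and higher in HK2. The difference of the Dsh effect between the lines, tested directly, passed for 21 of 41 genes, 9 higher and 12 lower in ACHN, where 46.0% of all genes passed (23.3% higher, 22.7% lower). The 21 include OAS2, IFITM2 and IFI27, which were not tested against shNC in both lines. OAS2 had at most 6 counts and IFITM2 at most 11 in any HK2 library, and the Dsh call of IFITM2 was lost without HK2 shNC replicate 3, HK2 Dsh replicate 1 or HK2 Dsh replicate 2 (adjusted p up to 0.235). Among the genes that were also tested against shNC in each line, 18 of 33 passed, 7 higher and 11 lower, where 52.4% of all such genes did. The shYY1 effect differed for 13 of 41, 7 higher and 6 lower, where 33.1% of all genes passed (16.6% higher, 16.5% lower), and for 8 without HK2 shYY1 replicate 3. These include OAS2, whose call was lost in 5 of 12 omissions (HK2 shNC replicates 1 and 2 and each HK2 shYY1 replicate, adjusted p up to 0.0945), and among genes tested in each line 12 of 32 passed, where 38.6% of all such genes did. The shKDM5C effect differed for 4 of 41, where 11.9% of all genes passed (5.74% higher, 6.18% lower), and all 4 were among the 33 tested in each line (13.9% of all such genes passed). The last 4 were STING1 and IFI35, higher in ACHN, and SAMD9L and OAS3, lower in ACHN, and the call of IFI35 was lost in 9 of 12 omissions of 1 library, those of each ACHN shNC, ACHN shKDM5C and HK2 shNC replicate (adjusted p up to 0.116). With scaling to total counts, 1 was higher and 3 lower. Without HK2 shKDM5C replicate 1 the count was 11 of 41 (33.9% of all genes).

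**Figure D4:**
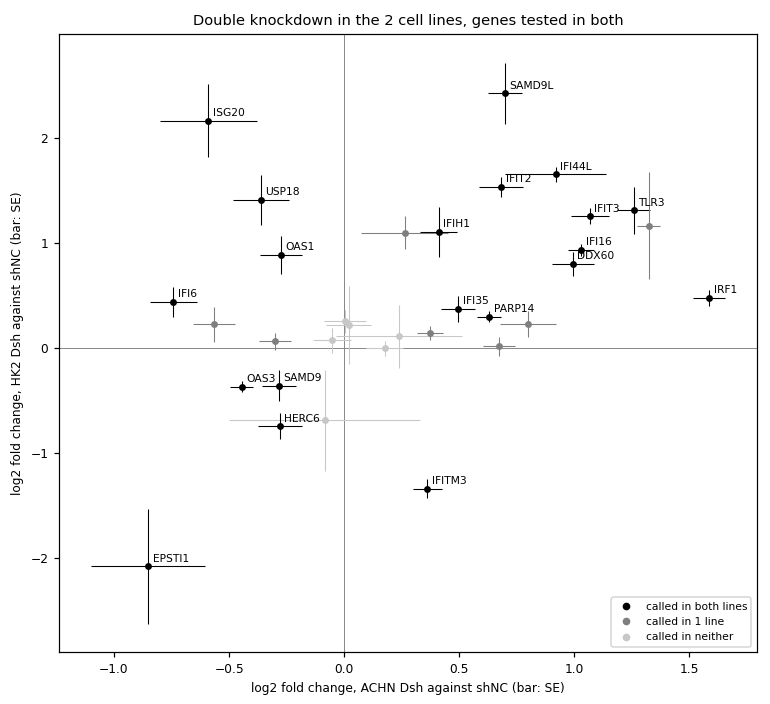
Log2 fold change of Dsh against shNC in ACHN (x axis) and HK2 (y axis) for the 33 genes tested in both, with SE as bars, black where called in both lines. The 11 genes at upper right rose in both lines, 4 at lower left fell in both, and ISG20, USP18, OAS1, IFI6 and IFITM3 sit in the other quadrants.

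The wider pathway was examined through 3 further lists. No transcript of IFNB1, IFNA1, IFNL1 or IFNL2 was counted in any of the 24 libraries, so the type I and type III interferon genes listed gave at most 76 counts (IFNE, an interferon of epithelia, in 11 HK2 libraries), with 4 of IFNL3 and 1 of IFNK. Of the 17 ligand, receptor and signalling genes, 10 were tested in each comparison. In ACHN Dsh 6 were higher and 3 lower (30.7% and 32.0% of all genes), with SOCS1, a feedback inhibitor of JAK kinases, from 0.891, 1.40 and 1.68 CPM in shNC to 7.77, 6.81 and 7.17 (2.46, adjusted p = 4.38e-09), and IFNLR1, the interferon lambda receptor, from 9.12, 7.28 and 7.74 to 2.26, 1.11 and 2.28 (-2.06, adjusted p = 6.27e-08). IFNLR1 was also lower in HK2 shYY1 (-2.79) and HK2 Dsh (-2.60, adjusted p = 1.85e-06), whereas IFNAR2, a subunit of the type I receptor, was higher in Dsh of both lines (0.87 in ACHN, 0.64 in HK2). Other annotated genes overlap 48.4% of the exonic bases of IFNAR2, and the counting cannot separate their reads there. In HK2 Dsh 3 of these 10 were higher and 2 lower (25.5% and 24.3% of all genes), and in HK2 shYY1 1 was higher and 7 lower (14.3% and 14.7% of all genes).

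Of 13 other sensor pathway genes 10 were tested, and in ACHN Dsh 9 were higher and 1 lower, where 30.7% of all genes were higher and 32.0% lower. RIGI, the sensor of RNA ends, had 16.6, 18.8 and 19.8 CPM in ACHN shNC and 40.2, 41.4 and 39.2 in Dsh (1.14, adjusted p = 3.30e-10). The gene that fell was ENPP1, the enzyme that degrades the messenger between cGAS and STING, from 8.86, 10.4 and 8.66 to 3.45, 4.65 and 3.87 CPM (-1.22, adjusted p = 8.44e-07). ENPP1 was lower in 5 of the 6 knockdown comparisons, HK2 shYY1 (-0.58) and HK2 Dsh (-0.93) included, and not called in HK2 shKDM5C (0.53, adjusted p = 0.377). In HK2 Dsh 4 of the 10 were higher and 4 lower (25.5% and 24.3% of all genes), MYD88, the adaptor of most Toll-like receptors, falling from 28.2 to 13.6 CPM (-1.05) although it rose in ACHN Dsh (0.47). TREX1, the DNase that removes cytosolic DNA, is listed at 0 in all libraries, but 100% of its exonic bases lie within another annotated gene, so its reads could not be assigned. Of 29 further interferon-stimulated genes, 26 were tested in ACHN and 24 in HK2. In ACHN Dsh 15 were higher and 7 lower (30.7% and 32.0% of all genes). PML, the scaffold of nuclear bodies, rose there from 65.4 to 169.8 CPM (1.38, adjusted p = 1.59e-14). HELZ2 also rose, and LAMP3 and TDRD7 fell. Over other settings and omitted libraries these 3 log2 fold changes were 1.07 to 1.19, -1.85 to -1.34 and -0.70 to -0.64. In HK2 Dsh 11 were higher and 4 lower (25.5% and 24.3% of all genes). These included UBE2L6 (1.06 to 1.13) and GBP3 (0.91 to 1.14), and TRIM14 and TRIM5 (each -0.90 to -0.80).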

How the data were processed

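RNA from 24 libraries (8 groups of 3, ACHN and HK2 cells) had been sequenced after TRIzol extraction and NEBNext Ultra library preparation. Per the file headers the deposited values are raw counts of read pairs per Ensembl gene, made by the authors with featureCounts 2.0.1 in paired, unstranded mode. The submitters' processing notes name HISAT2 2.0.5 and featureCounts 1.5.0-p3. The files hold 60675 genes (GRCh38), of which 4117 have no symbol (0.243% of counts). Totals ranged from 15926561 to 24272298 per library.

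Each comparison was fitted over all genes with edgeR 4.0.16 (R 4.3.3, limma 3.58.1) by the quasi-likelihood test after filterByExpr and TMM scaling, without a replicate block, with Benjamini-Hochberg adjustment and a threshold of 0.05. Comparisons with shNC and of Dsh with a single knockdown used the 2 groups concerned, interactions the 4 groups of a line, and differences between lines 2 groups of each. An exact permutation test of 3 against 3 cannot go below p = 0.1, so none is given. The scripts were tested on simulated data first. Alternatives were DESeq2 1.42.0, other scaling and filters, a replicate block, the 4 groups of a line in 1 fit, and each library left out. Counting line differences only over genes tested in both lines was added after seeing the data.

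The 44 genes and the further lists were chosen with earlier results of these data known. All 44 are named. From the other lists, up to 2 genes in each direction were picked per comparison with shNC by largest change. Only called genes whose higher group averaged 1 CPM or more were eligible. Not all picked genes are described, and other comparisons of those described were added. Where the low-count filter removed a gene it was not tested. Promoter sequences are from RefSeq (GRCh38.p14). A list of leukocyte markers and 1 signalling gene are not reported here.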

Additional observations from a re-analysis of the deposited data

Results flagged for a closer look

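Differences between the cell lines in the effect of a knockdown were tested with an interaction fit in edgeR. The shKDM5C effect differed for 4 of 41 genes of the set (11.9% of all genes), the shYY1 effect for 13 (33.1%) and the Dsh effect for 21 (46.0%). Among genes also tested against shNC in each line these were 4 of 33 (13.9%), 12 of 32 (38.6%) and 18 of 33 (52.4%), since OAS2, IFITM2 and IFI27 were not tested in both lines. Among them are 7 cases in which the gene was called in both lines and in opposite directions, given here as the log2 effect in ACHN minus that in HK2. For shYY1 these were PARP14 at 0.62 and IFITM3 at 2.20. For Dsh they were IFITM3 at 1.72, IFI6 at -1.16, OAS1 at -1.14, ISG20 at -2.73 and USP18 at -1.75. The causes of these differences were not tested.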

How the results depend on the processing

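Of 109 recounts of the called genes under other tools, scaling, filters, the replicate block, the 4-group fit or (added after seeing the data) the genes tested in both lines, 96 lay within 1.5 times the reported count. The 13 others all involve HK2 cells. The count for HK2 shKDM5C was 3 with DESeq2, 1 with DESeq2 size factors, total counts or no filter, and 5 with all 4 groups fitted together. HK2 shYY1 gave 2 with all 4 groups. HK2 Dsh against shKDM5C gave 10 with DESeq2 and 16 with all 4 groups, the HK2 interaction 8 with DESeq2 and 8 with no filter, and the line difference of shKDM5C 2 with no filter. Shares of all genes under these settings are not given, so these counts show only how the calls depend on the processing. Scaling to total counts shifted the median of all genes in the ACHN interaction to 0.11. STING1 had 4 to 29 counts in each HK2 library, and no change of it was detectable in HK2 at this depth and spread. The causes of these shifts were not tested.

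Leaving out 1 library gave 20 to 21 calls for ACHN shKDM5C, 22 to 26 for ACHN shYY1, 26 to 28 for ACHN Dsh, 22 to 25 and 25 to 26 for Dsh against shKDM5C and shYY1, and 23 to 27 for the interaction. In HK2 it gave 0 to 9 for shKDM5C, 4 to 9 for shYY1, 22 to 26 for Dsh, 1 to 23 and 19 to 22 for Dsh against shKDM5C and shYY1, and 1 to 15 for the interaction. The line differences gave 3 to 11 for shKDM5C, 8 to 14 for shYY1 and 18 to 21 for Dsh, and shNC 31 to 34. Of 159 called results for single genes, 29 lost their call without 1 library. Uncalled log2 values changed sign for STING1 in ACHN Dsh (-0.61 to 0.25) and in HK2 for shYY1 (-0.72 to 0.084), Dsh against shKDM5C (-0.46 to 0.39), Dsh against shYY1 (-0.78 to 0.084) and the interaction (-0.13 to 0.73). They also did so for CGAS in HK2 Dsh against shYY1 (-0.063 to 0.083) and in the line differences of shKDM5C (-2.04 to 1.67) and shYY1 (-2.18 to 0.12).

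Replicate numbers did not pair the samples, since deviations of same-numbered samples correlated at -0.28 to 0.10. With the replicate number as a block, HK2 Dsh against shKDM5C gave 2 calls and the line difference of shKDM5C gave 1, and the other counts stayed within 1.5 times.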
